A study of Homo sapiens with 24 samples.

Results

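H1 cells on day 2 of differentiation to ectoderm were set against undifferentiated primed H1 cells, gene by gene across the whole transcriptome. H1 is an established human embryonic stem cell line, and primed is the pluripotent state in which such cells are usually kept, close to that of the epiblast just before gastrulation. The ectoderm cells and the primed cells were both labelled nontargeting, the control arm of a knockdown system, and both had been given doxycycline, so that state was what the labels gave as different between them. Each group had 3 libraries, and these 6 were drawn from the 24 libraries of the series. The labels gave StemFlex as the growth medium. The differentiation medium, the day of handling and whether the libraries of a group came from separate cultures were not stated in the labels or processing notes. P-values below therefore measure the spread between these libraries, which may be technical. All genes were members: of 60671 in the count table, 15409 passed a filter on low counts in these 6 libraries and were tested. A further pair of groups from the same line, also given doxycycline, had 3 libraries each: day 2 ectoderm with knockdown of ZIC2, and primed cells with knockdown of CARHSP1.

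Neural ectoderm is the part of the early ectoderm that folds into the brain and spinal cord. In the embryo and in culture it forms by default where Nodal, activin and BMP signals are low, and its most anterior part, the prospective forebrain and eye, is kept by low WNT signalling. Primed human pluripotent cells depend on the opposite setting, with activin or Nodal and FGF acting through SMAD and ERK to keep NANOG and POU5F1 on. On the way, cells lose NANOG first, keep SOX2, and switch on homeobox and zinc finger factors of the anterior neural plate before PAX6 becomes abundant.

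The 3 ectoderm libraries held 6756704, 10111650 and 12006924 counts in genes, and the 3 primed libraries 13175677, 7317419 and 10843152. Levels are CPM, read counts scaled to a common library size, with edgeR's TMM factors applied. Changes are fitted log2 differences, ectoderm minus primed, with their standard error. Adjusted p-values are from edgeR's quasi-likelihood F test with Benjamini-Hochberg adjustment over all 15409 genes, and a gene was called at an adjusted p under 0.05. Replicates were close, with a biological coefficient of variation of 7.41%. Mitochondrially encoded transcripts took 2.43%, 2.29% and 2.00% of the counts in ectoderm, against 5.93%, 5.82% and 6.10% in primed cells. Change also moved with base composition, with a Spearman correlation across genes of -0.35 between a gene's GC content and its log2 change (n = 15346 genes with a GC value, measured in the same libraries). The part of mitochondrial share or base composition in the gene changes below was not tested beyond a fit with GC and length trends removed. In bulk RNA, fewer cells of a type and less RNA per cell cannot be told apart.

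Of the 15409 genes tested, 4730 (30.7%) were called higher and 4959 (32.2%) lower in day 2 ectoderm. Past a 2-fold change there were 1047 higher and 2227 lower genes, so that large changes were more often decreases. Protein-coding genes made up 821 of the 1047 and 1925 of the 2227. The 3 ectoderm libraries all lay above, or all below, the 3 primed libraries for 1018 of the 1047 and for 2197 of the 2227. The same was true of 10145 of all 15409 genes tested, and of 931 of the 5720 not called. Such separation largely follows from the call, here and for single genes below, and adds no support to it. The median log2 change over all genes tested was -0.002, and list medians below are read against it. Counts of list members are read against the shares of 30.7% higher and 32.2% lower, and a list near them is no result about its members. Genes near 0 in either group passed the filter only through the other group, so the direction of their call was fixed. The neural plate, Nodal target, BMP target, naive, endoderm and trophoblast lists hold such genes, and their splits of calls carry that limit.

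Marker genes were set against the labelled state. All 9 measured markers of neural ectoderm were higher, and their summed level was 2195 to 2272 CPM in ectoderm, against 537.9 to 559.8 CPM in primed cells. Among them SIX3, LHX5, SOX1 and PAX6 passed the filter only through their ectoderm levels, so they could be called only as higher. RAX, an eye field gene on that list, was at 0 in all 6 libraries. Markers of primed cells were split, 4 higher and 4 lower of 8, with sums of 9263 to 9727 CPM in ectoderm and 8040 to 8330 CPM in primed cells. Of the surface ectoderm markers, 0 of 5 measured were higher and 5 were lower. Among the 5, KRT19 was not called with GC and length trends removed (log2 change 0.091, adjusted p = 0.349). TFAP2A, TP63 and GATA3, which define that lineage, were at 0 in all 3 ectoderm libraries. They averaged only 0.163, 0.127 and 0.618 CPM in primed cells and were not tested. The endoderm markers SOX17 and GATA4 and the mesendoderm marker GSC were likewise at 0 in all 3 ectoderm libraries. In primed cells they averaged 0, 1.61 and 0.25 CPM. Of the other mesendoderm markers, MIXL1 was called lower and TBX6 was not called, averaging 3.04 CPM in ectoderm and 3.28 CPM in primed cells. TBXT, averaging 0.79 CPM in ectoderm and 0.55 CPM in primed cells, was too low to test. Neuron markers summed to 309.5 to 386.3 CPM in ectoderm, against 63.45 to 64.66 CPM in primed cells, and NEUROG2 was at 0 in both groups. Of 5 fibroblast markers, COL1A1 alone was detected in ectoderm, at 59.2, 49.5 and 55.7 CPM in ectoderm, against 128, 123 and 125 CPM in primed cells (log2 change -1.198, and -0.63 with GC and length trends removed). COL3A1 and LUM were at 0 in both groups.

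Regulators of the anterior neural plate were among the largest increases. ZEB2, a zinc finger repressor that dampens SMAD signalling, had 135, 135 and 119.8 CPM in ectoderm, against 0, 0 and 0 CPM in primed cells. With no count in any primed library, it was at least 1355-fold higher against a floor of 3 counts over the 3 primed libraries (adjusted p = 5.65e-29). GREB1L, needed for kidney and ear development, had 313, 302 and 305 CPM in ectoderm, against 0.0763, 0.136 and 0 CPM in primed cells, and had the smallest p-value among the increases (adjusted p = 4.09e-35). Both genes were at or near the detection floor in every primed library and above 100 CPM in every ectoderm library. The other named increases past 5 CPM were SIX3, WNT8A, ARHGAP15, LHX5, LHX5-AS1, LINC01833, SOX1, CYP26C1, LMO1, SGMS2, CUZD1 and 2 genes without a symbol, ENSG00000259223 and ENSG00000229271. LMO1, a LIM-only cofactor, had 28.3, 26.3 and 27.3 CPM in ectoderm, against 0.305, 0.136 and 0.184 CPM in primed cells. WNT8A, a WNT ligand, had 7.95, 8.17 and 9.96 CPM in ectoderm and 0, 0 and 0 CPM in primed cells, at least 90.8-fold higher. Among the smallest p-values were also PKDCC, a secreted tyrosine kinase, at 642, 593 and 592 CPM in ectoderm against 15.7, 15.5 and 16.2 CPM in primed cells, and ACADSB, an acyl-CoA dehydrogenase, at 263, 274 and 305 CPM in ectoderm against 11.2, 9.66 and 9.66 CPM in primed cells.

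A Nodal antagonist, pluripotency transcripts and genes of other kinds made up the largest decreases. LEFTY1, a secreted Nodal antagonist that is itself a Nodal target, had 0, 0 and 0 CPM in ectoderm, against 9.39, 9.39 and 9.196 CPM in primed cells, at least 89.1-fold lower. LINC-ROR, a long noncoding RNA of pluripotent cells, had 0, 0.0997 and 0 CPM in ectoderm and 26.9, 25.9 and 26.9 CPM in primed cells, lower by 763-fold (95% counting interval 137 to 30190). NTS, the neurotensin precursor, had 0, 0.0997 and 0.422 CPM in ectoderm and 69.1, 66.4 and 67.2 CPM in primed cells. ADM, the secreted vasodilator adrenomedullin and a hypoxia-responsive gene, was lower by 275-fold (95% counting interval 93.9 to 1337), at 0, 0.299 and 0 CPM in ectoderm and 30, 23.96 and 30.6 CPM in primed cells. SERPINB9, an inhibitor of granzyme B, had 1.47, 0.797 and 1.27 CPM in ectoderm, against 255, 264 and 264 CPM in primed cells (log2 change -7.81 ± 0.12, adjusted p = 1.02e-33). Also on this list were SEMG1, OR52A1, ACTA1, SYT4, LINC01844, LINC02700, LINC01108 and the unnamed ENSG00000219445, ENSG00000254365 and ENSG00000287492, all below 1 CPM on average in ectoderm. ACTA1 has close paralogs, so its counts may hold reads of other actins. ENSG00000254339, a gene without a symbol, was among the 5 smallest p-values of the decreases, at 10.01, 12.7 and 10.6 CPM in ectoderm and 489, 456 and 465 CPM in primed cells.

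**Figure D1:**
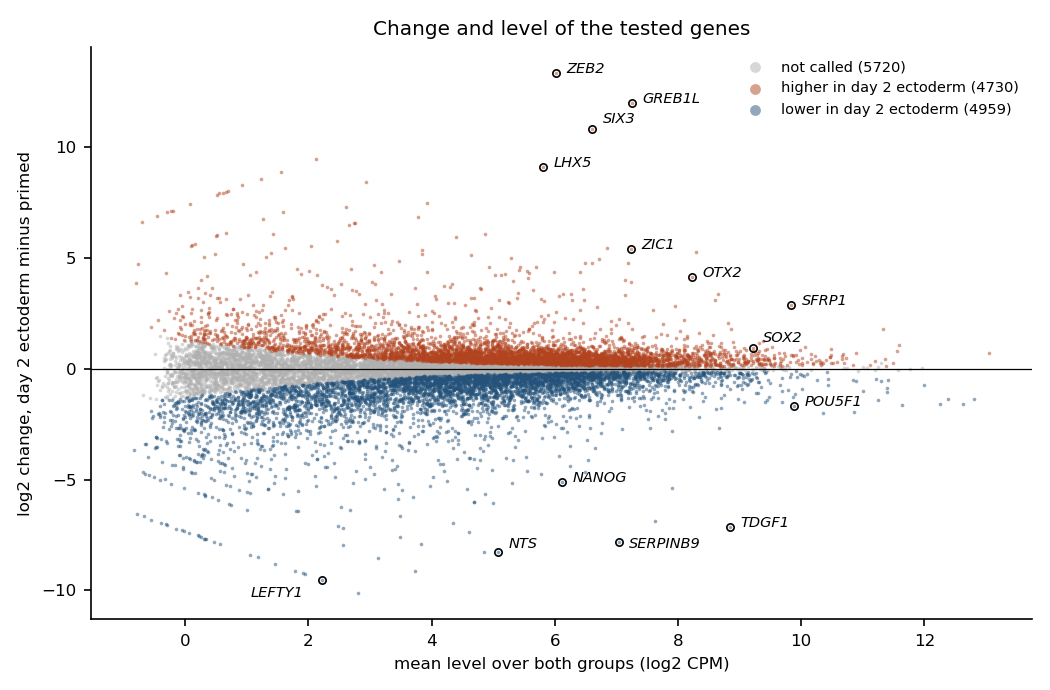
Fitted log2 change of each of 15409 genes (vertical axis, ectoderm minus primed) against its mean level in log2 CPM over both groups (horizontal axis). Called genes past 2-fold number 1047 above and 2227 below the zero line, with named neural plate genes far above it and Nodal pathway genes far below. The height of a gene at 0 counts in a whole group, such as ZEB2 or LEFTY1, depends on the fit's prior count.

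Most measured transcription factors of the neural plate rose. Of 42 listed, 29 passed the filter, and 25 of these were called higher and 4 lower, with a median log2 change of 2.38. Members near 0 in primed cells, among them ZEB2, SIX3, LHX5, SOX1 and PAX6, passed the filter only through ectoderm. They could be called only as higher, so part of this split was fixed by the filter. SIX3, a homeobox factor that represses WNT genes in the prospective forebrain, had 210.5, 201 and 175 CPM in ectoderm, against 0.229, 0 and 0 CPM in primed cells, higher by 2009-fold (95% counting interval 687 to 9746). LHX5, a LIM homeobox factor of the anterior neural ridge, had 110.1, 109.8 and 117 CPM in ectoderm, against 0.153, 0.136 and 0.276 CPM in primed cells (log2 change 9.11 ± 0.19, adjusted p = 9.64e-30). SOX1, the earliest factor restricted to neural ectoderm, had 12.1, 10.2 and 14.1 CPM in ectoderm and 0, 0 and 0.184 CPM in primed cells, higher by 192-fold (95% counting interval 52.7 to 1589). For these 3 genes the primed libraries were close to the detection floor and the ectoderm libraries lay well apart from them.

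Other factors were already present in primed cells and rose further. ZIC1, a zinc finger factor of the dorsal and anterior neural plate, had 318, 290.3 and 277 CPM in ectoderm, against 6.26, 5.45 and 8.83 CPM in primed cells (42.4-fold, log2 change 5.404 ± 0.101, adjusted p = 3.34e-27). OTX2, the homeobox factor of forebrain and midbrain, had 605, 594 and 511 CPM in ectoderm, against 28.5, 37.3 and 31.4 CPM in primed cells (17.8-fold, log2 change 4.16 ± 0.083, adjusted p = 2.89e-22). HESX1, a repressor required for forebrain and pituitary, averaged 82.8 ± 6.14 CPM in ectoderm and 3.38 ± 0.939 CPM in primed cells (SD, n = 3 each), and SOX21, a SOX factor of neural progenitors, 129 ± 12.1 CPM in ectoderm and 12.3 ± 2.28 CPM in primed cells. ZIC4, ZIC2 and ZIC5, of the same zinc finger family, rose with log2 changes of 3.83, 1.53 and 1.43. SOX2, which neural and pluripotent cells share, had 759, 724 and 865 CPM in ectoderm, against 400.3, 403 and 416 CPM in primed cells, a 1.93-fold increase. PAX6, the factor that marks established human neural ectoderm, stayed low at 3.39, 2.19 and 1.27 CPM in ectoderm, against 0.0763, 0.272 and 0.276 CPM in primed cells, although it was called (log2 change 3.42 ± 0.66, adjusted p = 3.15e-05).

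The 4 neural plate factors called lower were SALL3, MYCN, SOX3 and TCF7L1. SALL3, a zinc finger factor, fell by 2.21 on the log2 scale, at 15.8, 8.57 and 13.8 CPM in ectoderm and 60.4, 58.5 and 54.2 CPM in primed cells. MYCN, which drives growth of progenitors, had a log2 change of -0.82. SOX3 and TCF7L1 had log2 changes of -0.76 and -0.301, which were -0.022 and 0.19 with GC and length trends removed, where SOX3 was not called and TCF7L1 was called higher. Few genes of posterior identity were high enough to test. Of 18 hindbrain and posterior genes listed, only 6 passed the filter, 0 were called higher and 5 lower, and GBX2, which sets the front edge of the hindbrain, had 0.147, 0.797 and 0.76 CPM in ectoderm against 8.62, 7.08 and 8.83 CPM in primed cells. HOXB1, an anterior HOX gene, was at 0 in all 3 ectoderm libraries and averaged 1.63 CPM in primed cells. GBX2 and HOXB1 passed the filter only through their primed levels, so they could be called only as lower. All 18 listed genes summed to 4.12 to 4.98 CPM in ectoderm and 21.98 to 22.9 CPM in primed cells. The split of calls is therefore no measure of posterior identity.

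The progenitor filament genes NES and VIM were not called. NES, nestin, had 481, 545 and 615 CPM in ectoderm, against 513, 478 and 495 CPM in primed cells (log2 change 0.14 ± 0.065, adjusted p = 0.0557), and VIM, vimentin, 78.8, 78.4 and 81.1 CPM in ectoderm and 82.3, 79.1 and 72.8 CPM in primed cells (adjusted p = 0.784). NES was called with GC and length trends removed (log2 change 0.54, adjusted p = 3.34e-05) and without ectoderm replicate 1 (0.241, adjusted p = 9.6e-05). FEZF1, a forebrain zinc finger factor, had 296, 274 and 226 CPM in ectoderm and 16.9, 18.6 and 14.9 CPM in primed cells. FEZF1, NES and VIM, and POU3F1, IRX3, UTF1 and ZFP42, which are plotted with them, were chosen after their values were seen.

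**Figure D2:**
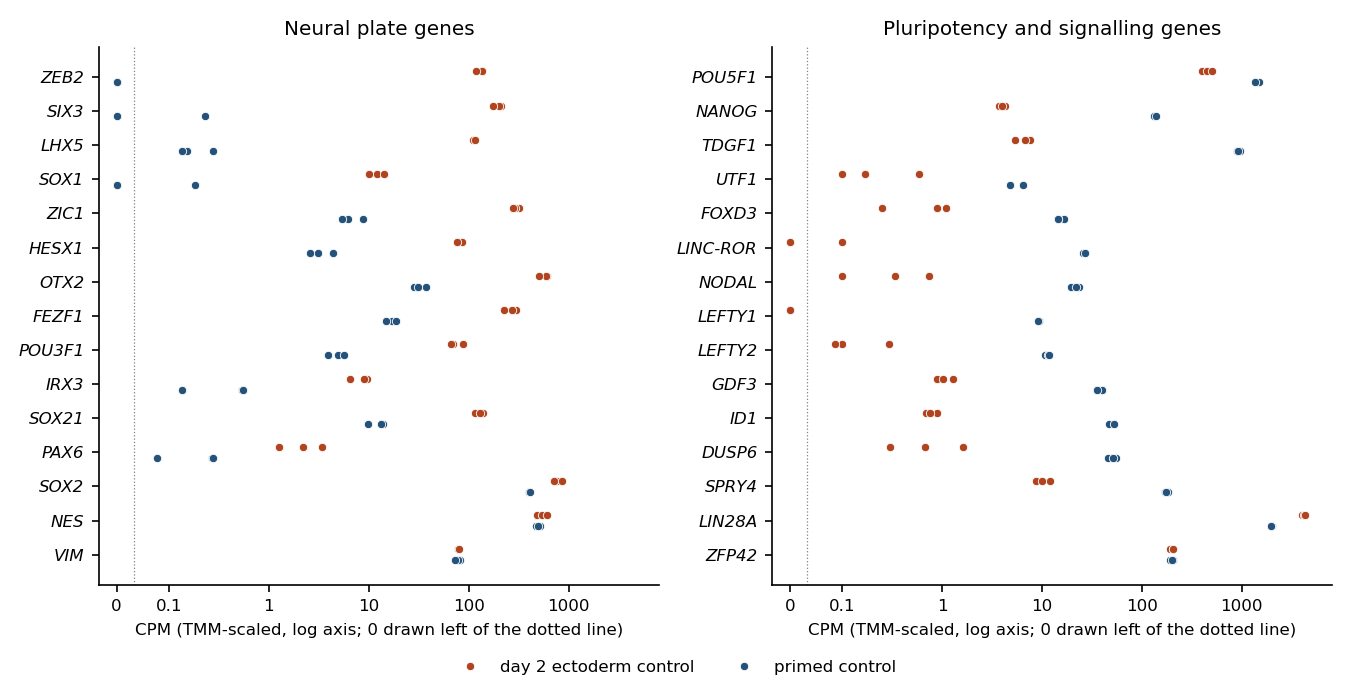
Level of selected genes in each of the 3 day 2 ectoderm and 3 primed libraries, in CPM on a log axis. The ectoderm points of ZEB2, SIX3 and LHX5 sit above 100 CPM while the primed points lie at 0 or below 1 CPM, and TDGF1 and NANOG show the opposite order.

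Structural and secreted genes of the neural plate were less uniform, with 15 higher and 7 lower of 26 tested and a median log2 change of 0.71. SFRP1, a secreted WNT inhibitor, had 1624, 1589 and 1642 CPM in ectoderm, against 219, 224 and 215 CPM in primed cells (log2 change 2.88 ± 0.052, adjusted p = 2.66e-31). MAP2, a microtubule protein of neurons and progenitors, had 211, 208 and 193 CPM in ectoderm and 6.11, 8.17 and 6.25 CPM in primed cells, a 30.5-fold increase. DLK1, a membrane ligand related to the NOTCH ligands, had a log2 change of 3.74, PTN, a secreted growth factor, 1.305, and MSI1, an RNA binding protein of neural stem cells, 1.39. On the other side, the surface glycoprotein gene PROM1 had a log2 change of -0.89 and SFRP2, another WNT inhibitor, -0.63. Genes of postmitotic neurons were called higher for 4 and lower for 5 of 13, the lower count being 3 without ectoderm replicate 2. Among them STMN2, a regulator of microtubules in growing axons, averaged 331 ± 36.2 CPM in ectoderm and 53.5 ± 0.392 CPM in primed cells (SD, n = 3 each), while SYT1, GAP43 and ONECUT2 fell.

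Alternative fates of early ectoderm and of gastrulation were mostly lower or not detected. Of 7 neural crest and border genes tested, SOX9, a factor of crest and of neural stem cells, was the 1 called higher (log2 change 1.57), and 5 were lower. EDNRB, the endothelin receptor of crest cells, had 2.503, 1.495 and 2.45 CPM in ectoderm, against 83.8, 71.7 and 74.3 CPM in primed cells, and FOXD3, a factor of both crest and pluripotent cells, 0.883, 1.096 and 0.253 CPM in ectoderm against 16.7, 14.6 and 14.4 CPM in primed cells. Of 12 surface ectoderm and placode genes tested, 4 were higher and 6 lower. The simple epithelial keratins KRT8 and KRT18 fell, KRT18 to 73.02, 77.4 and 75.6 CPM in ectoderm, against 359, 323 and 316 CPM in primed cells. Both keratins have many processed pseudogenes, so their counts are uncertain. EPCAM and CDH1, which epithelia in general express, had small increases, with log2 changes of 0.398 and 0.12. KRT7 and TFAP2C were the other members called higher, and none of the 4 reached 2-fold. The call of CDH1 was lost when any 1 of the 3 primed libraries was left out, at adjusted p = 0.0611, 0.105 and 0.0869 without replicates 1, 2 and 3. Without primed replicate 1, or without primed replicate 3, 2 of the surface ectoderm and placode genes were called higher.

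Mesendoderm genes numbered 6 tested, 1 higher and 3 lower. The higher member was FGF17 (log2 change 2.994). KDR, the VEGF receptor of mesoderm that primed cells also transcribe, had 69.8, 58.8 and 63.2 CPM in ectoderm, against 300.3, 308 and 302 CPM in primed cells, and WNT3, the ligand that starts primitive streak formation, had 0.147, 0.299 and 0.591 CPM in ectoderm and 9.08, 6.67 and 6.34 CPM in primed cells. In endoderm, 2 were higher and 3 lower of 5 tested. HHEX, a homeobox repressor of anterior endoderm, had 9.27, 12.3 and 10.98 CPM in ectoderm and 0.687, 0.681 and 0.92 CPM in primed cells (log2 change 3.81 ± 0.31), while AFP, a fetal liver protein, was lower by 51.3-fold (95% counting interval 13.9 to 428). Of the trophoblast and amnion genes tested, 1 was higher and 3 lower of 4. The higher member was IGFBP3 (log2 change 3.097). All 16 listed genes summed to 61.4 to 64.7 CPM in ectoderm, against 23.6 to 25.9 CPM in primed cells. The GABA receptor subunit gene GABRP fell to 0.147, 0.199 and 0.0844 CPM in ectoderm, against 11.9, 13.1 and 13.1 CPM in primed cells. Fibroblast genes were called higher for 0 and lower for 5 of 6, and higher for 1 with GC and length trends removed, without primed replicate 1 or without ectoderm replicate 1. They were led by THY1 with 58.1, 64.4 and 56.5 CPM in ectoderm and 421, 417 and 421 CPM in primed cells, a surface protein that primed stem cells also carry.

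Most core pluripotency factors fell, by unequal amounts. Of 20 core factors, 4 were higher and 15 lower, with a median log2 change of -0.80. TDGF1, the Nodal co-receptor also called CRIPTO, had the smallest p-value of any decrease, with 7.66, 5.38 and 6.84 CPM in ectoderm, against 951, 891 and 909 CPM in primed cells (140.1-fold lower, log2 change -7.13 ± 0.084, adjusted p = 9.35e-37). NANOG, a homeobox factor of the core network, had 4.27, 3.69 and 3.97 CPM in ectoderm, against 136, 134 and 137 CPM in primed cells (34.2-fold lower, log2 change -5.098 ± 0.11, adjusted p = 3.05e-29). POU5F1, its partner, kept a high level of 398, 450.2 and 505 CPM in ectoderm, against 1486, 1472 and 1348 CPM in primed cells (log2 change -1.67 ± 0.067). TDGF1, NANOG and POU5F1 all have processed pseudogenes, and how the authors' counting shared reads among copies was not stated in the labels. For none of these 3 genes did ectoderm and primed libraries overlap, and NANOG and TDGF1 fell further than POU5F1 on the log2 scale.

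Other core members were nearer to POU5F1 than to NANOG. The telomere protein gene TERF1 had a log2 change of -1.52, L1TD1, an RNA binding protein of pluripotent cells, -1.39, and PRDM14, a repressor of differentiation genes, -1.399. The 4 higher members were SOX2, LIN28A, LIN28B and SALL4. LIN28A, which blocks maturation of let-7 miRNAs, had 4046, 4175 and 4267 CPM in ectoderm and 2005, 1968 and 1962 CPM in primed cells, and LIN28B, its paralog, a log2 change of 0.46. Genes of the naive state, an earlier pluripotent state, were called higher for 1 and lower for 8 of 10, with a median log2 change of -2.31. The higher count was 0 without primed replicate 1 or without ectoderm replicate 1. TFCP2L1, a naive factor that primed cells retain at a low level, had 1.18, 2.09 and 1.77 CPM in ectoderm, against 17.6, 14.4 and 20.2 CPM in primed cells. Genes that set primed cells apart from naive ones were split 8 higher and 6 lower of 15, with OTX2, ZIC2 and SOX11 on the higher side and THY1, DUSP6 and FGF2 on the lower. Noncoding transcripts of pluripotent cells were called higher for 3 and lower for 8 of 12. Of these LINC00458 had 1.18, 0.897 and 1.18 CPM in ectoderm, against 47.1, 42.8 and 49.3 CPM in primed cells, while ESRG, an abundant retrovirus-derived transcript, averaged 1379 ± 59.2 CPM in ectoderm and 2727 ± 90.2 CPM in primed cells (SD, n = 3 each).

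The NANOG promoter is shown because the gene fell while its promoter is known to carry a composite element for POU5F1 and SOX2, of which SOX2 rose. The window runs from 250 bases before to 50 bases after the start of the RefSeq transcript, at chr12:7789152-7789451 on the plus strand of GRCh38.p14, and capitals mark the match to TTTGCATNACAA, the octamer and SOX parts of that element, searched on both strands.
NANOG: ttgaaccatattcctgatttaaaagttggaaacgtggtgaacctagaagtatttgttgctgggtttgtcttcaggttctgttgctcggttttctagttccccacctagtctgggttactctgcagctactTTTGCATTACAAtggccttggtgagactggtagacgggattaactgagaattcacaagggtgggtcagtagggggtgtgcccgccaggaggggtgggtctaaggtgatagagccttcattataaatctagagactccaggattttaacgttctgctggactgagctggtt
The match lies 120 to 109 bases before the start. The same letters were present in 11 of 35116 promoter windows of this length in RefSeq (0.0313%). A match is a description of the letters, not a measured site, and no binding data enter this comparison.

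Most Nodal and activin ligands and targets fell, as did the co-receptor TDGF1. Of 6 ligands tested, 1 was higher and 4 lower. NODAL had 0.736, 0.0997 and 0.338 CPM in ectoderm, against 19.5, 23.3 and 22.2 CPM in primed cells (log2 change -5.89 ± 0.303, adjusted p = 3.53e-18), and GDF3, a related ligand that acts through the same receptors, 0.883, 1.296 and 1.01 CPM in ectoderm against 35.95, 39.8 and 35.5 CPM in primed cells. TGFB2, a TGF-beta ligand of another receptor set, was the 1 called higher, with 63.7, 62.9 and 59.7 CPM in ectoderm and 3.97, 4.08 and 2.02 CPM in primed cells. The 4 lower were NODAL, GDF3, INHBA and TGFB1, of which TGFB1 is a TGF-beta ligand like TGFB2. Of 11 receptors and SMADs, 5 were higher and 3 lower, beside 30.7% and 32.2% of all genes. The type II activin receptor ACVR2A had a log2 change of 1.85 and the Nodal type I receptor ACVR1B 0.81, while TGFBR2 had -1.34. FOXH1, the SMAD partner, had a log2 change of -0.74, and of 0.002 with GC and length trends removed, where it was not called.

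Targets and feedback inhibitors of Nodal and activin were called higher for 0 and lower for 10 of 11 tested, with a median log2 change of -3.58. LEFTY1 and LEFTY2 passed the filter only through their primed levels, so they could be called only as lower. LEFTY2, a Nodal antagonist next to LEFTY1, had 0.294, 0.0997 and 0.0844 CPM in ectoderm, against 10.8, 11.6 and 11.7 CPM in primed cells. SKIL, a SMAD co-repressor induced by the pathway, had 13.1, 16.6 and 16.1 CPM in ectoderm and 180.4, 189 and 187 CPM in primed cells (log2 change -3.58 ± 0.085, adjusted p = 5.46e-28). SMAD7, the inhibitory SMAD, had 3.98, 3.39 and 3.63 CPM in ectoderm and 40.5, 33.8 and 30.99 CPM in primed cells. In each of these targets the highest ectoderm library lay far below the lowest primed library. DACT1 (log2 change -4.02) and PMEPA1 (-2.22) moved the same way.

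Most BMP targets fell. Of 14 BMP ligands, receptors and antagonists tested, 4 were higher and 6 lower, beside 30.7% and 32.2% of all genes. BMP2 had 119.7, 124 and 120.5 CPM in ectoderm, against 4.88, 7.62 and 5.61 CPM in primed cells (log2 change 4.38 ± 0.11, adjusted p = 6.46e-27), while BMP4 had 6.92, 5.38 and 5.66 CPM in ectoderm and 23.5, 21.4 and 23.4 CPM in primed cells. BMPR1A, a type I receptor, fell to 68.01, 65.6 and 68.2 CPM in ectoderm, against 151, 156 and 146 CPM in primed cells. Of 10 BMP targets tested, 1 was higher and 8 lower, with a median log2 change of -3.04. SMAD7 is among the lower genes both here and in the Nodal and activin target list. ID1, the inhibitor of basic helix-loop-helix factors that follows BMP SMADs most directly, had 0.883, 0.698 and 0.76 CPM in ectoderm, against 52.5, 47.2 and 52.2 CPM in primed cells (log2 change -6.02 ± 0.19). BAMBI, a decoy receptor, had a log2 change of -4.301, ID3 -1.75 and SMAD6 -1.68. The target called higher was ID2, with 74.05, 86.7 and 83.01 CPM in ectoderm and 47.5, 46.7 and 49.7 CPM in primed cells.

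More FGF ligands and receptors fell than rose, and most ERK outputs fell. Of 15 FGF ligands and receptors tested, 4 were higher and 8 lower. FGF2, the ligand that primed cells make and need, had 56.97, 65.3 and 70.6 CPM in ectoderm, against 137, 138 and 138 CPM in primed cells (log2 change -1.09 ± 0.073). FGFR1, a receptor, had 620.5, 609 and 567 CPM in ectoderm and 403, 386 and 389 CPM in primed cells, a 1.52-fold increase. ERK feedback and target genes were called higher for 3 and lower for 15 of 20, with a median log2 change of -1.79. DUSP6, the ERK phosphatase, had 1.62, 0.299 and 0.675 CPM in ectoderm, against 54.6, 46.3 and 52.05 CPM in primed cells (log2 change -6.03 ± 0.22, adjusted p = 1.21e-21), and SPRY4, a Sprouty inhibitor, 12.1, 8.77 and 10.1 CPM in ectoderm and 181, 172 and 176 CPM in primed cells. ETV4 and ETV5, ETS factors induced by FGF, had log2 changes of -2.72 and -4.04, and IL17RD, a membrane inhibitor of FGF signalling, -2.87. DUSP4, another phosphatase, went the other way with 99.96, 90.3 and 85.5 CPM in ectoderm and 17.6, 16.5 and 17.9 CPM in primed cells. Immediate early genes, which many growth signals induce, were called higher for 0 and lower for 13 of 15. FOS had 1.77, 1.89 and 1.604 CPM in ectoderm and 32.6, 34.7 and 37.1 CPM in primed cells, and MYC, a growth factor target that the core network also drives, 24.4, 25.4 and 26.4 CPM in ectoderm and 160.4, 179 and 154 CPM in primed cells.

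More WNT ligands, receptors and inhibitors rose than fell, and more WNT targets fell than rose. Of 19 WNT ligands, receptors and secreted inhibitors tested, 11 were higher and 6 lower, with a median log2 change of 0.62. FRZB, a secreted inhibitor, had 159, 159 and 167 CPM in ectoderm, against 6.79, 9.66 and 8.001 CPM in primed cells (log2 change 4.34 ± 0.098, adjusted p = 1.33e-28). The receptor genes FZD5, FZD7 and FZD2 had log2 changes of 1.36, 1.37 and 3.16, and the co-receptor LRP5 -1.44. Of 12 WNT targets tested, 2 were higher and 8 lower: AXIN2, the most used readout of the pathway, had 18.2, 16.1 and 15.96 CPM in ectoderm, against 29.6, 26.6 and 30.7 CPM in primed cells (log2 change -0.801 ± 0.13). LEF1, a nuclear effector and target, averaged 8.25 ± 0.773 CPM in ectoderm and 1.41 ± 0.722 CPM in primed cells (SD, n = 3 each).

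**Figure D3:**
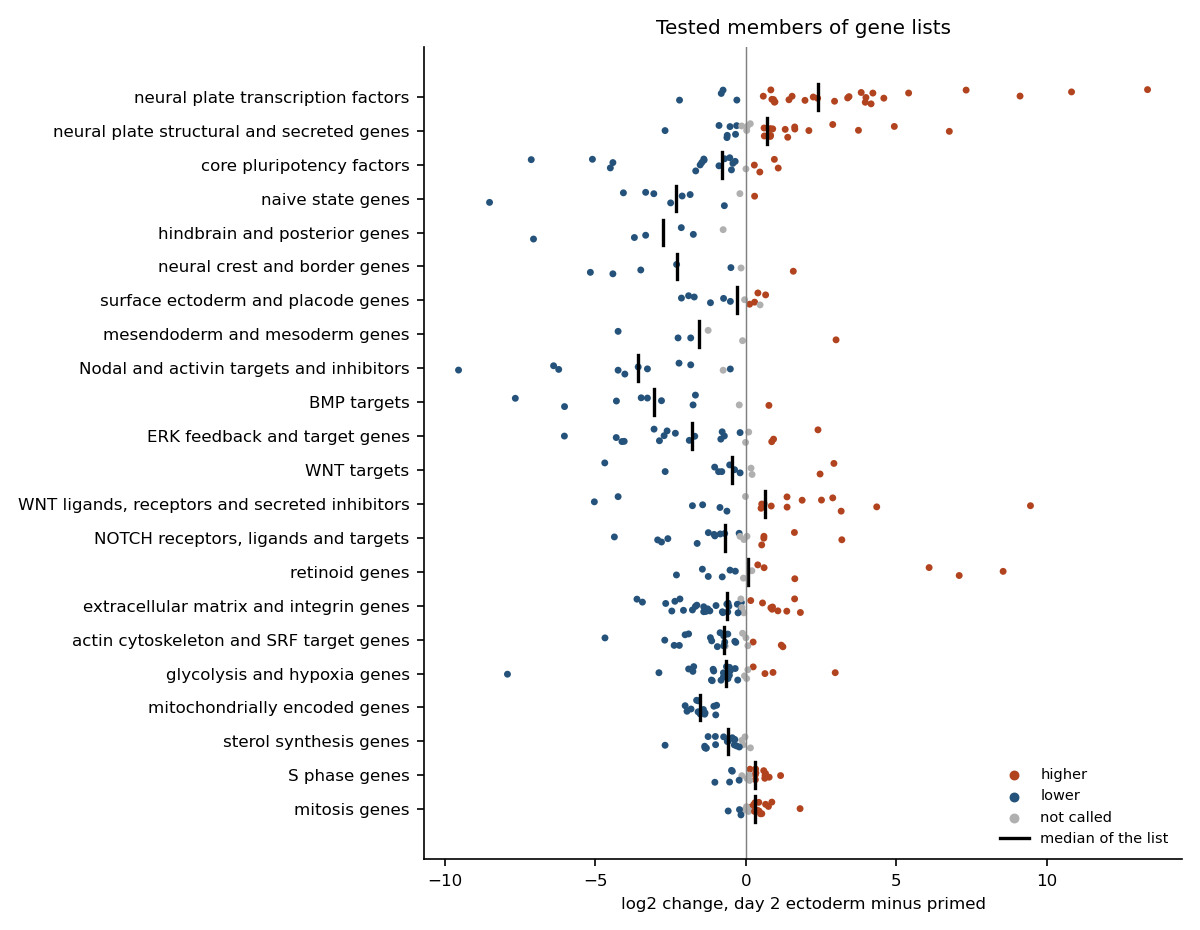
Fitted log2 change of each tested member (points) and the median (bar) of gene lists, ectoderm minus primed. Neural plate transcription factors have a median of 2.38, and targets of Nodal and activin and of BMP have medians of -3.58 and -3.04, against -0.002 for all genes tested. SMAD7 is a member of both target lists.

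NOTCH and Hedgehog genes changed in both directions. NOTCH receptors, ligands and targets were called higher for 5 and lower for 11 of 19, and 8 and 6 with GC and length trends removed. HES1, the repressor that keeps progenitors dividing, had 86.7, 70.4 and 70.6 CPM in ectoderm, against 8.62, 8.03 and 8.09 CPM in primed cells (log2 change 3.19 ± 0.12), and HEY2, a related repressor, 0.442, 0.698 and 1.604 CPM in ectoderm and 22.8, 19.5 and 20.3 CPM in primed cells. DLL1, a NOTCH ligand of committed neuroblasts, had a log2 change of -2.93. Of 12 Hedgehog genes tested, 7 were higher and 3 lower. The co-receptor genes BOC, CDON and GAS1 had log2 changes of 2.42, 1.13 and 1.58, and GLI3, which acts mainly as the pathway's repressor, 0.83, while the target GLI1 had -0.65.

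Retinoid genes included some of the largest increases, although as a list they were even at 6 higher and 6 lower of 14 tested, and 8 and 5 with GC and length trends removed. CYP26A1, which degrades retinoic acid and so keeps the anterior neural plate free of it, had 59.6, 50.8 and 61.6 CPM in ectoderm, against 0.611, 1.09 and 0.92 CPM in primed cells (log2 change 6.08 ± 0.19, adjusted p = 2.09e-24). CYP26C1, its neighbour and paralog, had 5.89, 5.18 and 6.92 CPM in ectoderm and 0, 0 and 0.092 CPM in primed cells, higher by 190.1-fold (95% counting interval 33.7 to 7551). RXRG, a retinoid X receptor, had 5.15, 5.88 and 3.04 CPM in ectoderm and 0, 0 and 0 CPM in primed cells, at least 48.98-fold higher. For both degrading enzymes every ectoderm library lay above every primed library, and CYP26A1 was detected in all 3 primed libraries. CRABP2, which carries retinoic acid to its receptors, had a log2 change of 1.62. The synthesis genes ALDH1A3 and RDH10 fell, with log2 changes of -2.31 and -0.79, as did the uptake receptor STRA6 (-1.45).

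A CYP26A1 promoter is shown because the gene is known to be induced by retinoic acid through repeated receptor sites near its start, and because its level separated the groups so widely. RefSeq has more than 1 start for the gene, and the window with a match runs at chr10:93073643-93073942 on the plus strand of GRCh38.p14. Capitals mark the match, read on the minus strand, to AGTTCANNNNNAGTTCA, a direct repeat of a receptor site, searched on both strands.
CYP26A1: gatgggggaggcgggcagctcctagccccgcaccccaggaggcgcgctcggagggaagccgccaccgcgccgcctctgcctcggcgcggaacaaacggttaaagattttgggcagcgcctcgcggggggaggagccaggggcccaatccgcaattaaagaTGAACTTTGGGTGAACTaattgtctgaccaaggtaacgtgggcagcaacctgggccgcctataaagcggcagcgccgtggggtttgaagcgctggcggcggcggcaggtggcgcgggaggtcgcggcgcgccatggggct
The match lies 90 to 74 bases before the start, and the same letters were present in 4 of 35116 windows (0.0114%). The gene's other window, at chr10:93073225-93073524, held 0 matches to these letters. The NANOG and CYP26A1 motifs lie in different promoters, and neither match says anything of a factor's binding.

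Of 21 Eph receptors and ephrins tested, which guide cells and axons by contact, 7 were higher and 9 lower, beside 30.7% and 32.2% of all genes, and 8 and 5 with GC and length trends removed. EPHA4, a guidance receptor of the early brain, had 166, 166 and 154 CPM in ectoderm, against 12.4, 12.7 and 15.1 CPM in primed cells (log2 change 3.59 ± 0.089), and EFNB1, a ligand, 60.4, 53.4 and 49.99 CPM in ectoderm and 9.54, 5.58 and 8.28 CPM in primed cells. EPHA1, a receptor of epithelial cells, went the other way with 49.02, 54.2 and 58.6 CPM in ectoderm and 194, 183 and 186 CPM in primed cells. Semaphorins, plexins and related guidance genes were called higher for 8 and lower for 21 of 41, and 14 and 15 with GC and length trends removed. NRP2, a semaphorin and VEGF co-receptor, had 744, 733 and 719.8 CPM in ectoderm, against 70.7, 68.8 and 73.7 CPM in primed cells (log2 change 3.36 ± 0.058, adjusted p = 4.72e-32). SEMA6D had a log2 change of 4.996 and NRP1 4.69, while SEMA6A fell to 447, 438 and 423 CPM in ectoderm, against 1210, 1215 and 1226 CPM in primed cells.

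Adhesion genes changed in both directions. Of 30 tested, 13 were higher and 14 lower. CDH2, N-cadherin, had 168, 179 and 159 CPM in ectoderm, against 100.1, 89.03 and 98.3 CPM in primed cells (1.75-fold, log2 change 0.81 ± 0.066), while CDH1, E-cadherin, had 798, 795 and 780.5 CPM in ectoderm, against 734, 724 and 720.2 CPM in primed cells. PCDH7, a protocadherin, had a log2 change of 4.304, NCAM1, the neural cell adhesion molecule, 2.09, and L1CAM, another immunoglobulin adhesion protein, -3.53. The tight junction genes CLDN7 and CLDN4 had log2 changes of -1.46 and -1.298.

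More extracellular matrix genes fell than rose, with 9 higher and 27 lower of 40 tested. VCAN, a large proteoglycan, had 111, 106 and 114 CPM in ectoderm, against 682, 705 and 710.5 CPM in primed cells (log2 change -2.66 ± 0.056, adjusted p = 1.37e-29). FN1, fibronectin, had 108, 121 and 118 CPM in ectoderm and 526, 541 and 523 CPM in primed cells. Some basement membrane genes rose: ITGA6, the laminin receptor subunit, had 442, 451 and 464 CPM in ectoderm and 212, 216 and 223 CPM in primed cells, and LAMB1 and COL4A6 had log2 changes of 0.83 and 1.81. Actin cytoskeleton and SRF target genes were called higher for 3 and lower for 17 of 24. CCN1 and CCN2, matricellular genes induced through YAP and SRF, had log2 changes of -2.38 and -2.21, and FLNA, an actin crosslinker, -1.14, which was -0.49 with GC and length trends removed. TPM1, a tropomyosin, rose to 469, 524 and 547 CPM in ectoderm, against 229, 230.1 and 224 CPM in primed cells.

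Energy and lipid metabolism genes were mostly lower. Glycolysis and hypoxia genes were called higher for 4 and lower for 20 of 27. SLC2A1, the glucose transporter GLUT1, had 82.9, 82.9 and 73.04 CPM in ectoderm, against 304, 291 and 295 CPM in primed cells (log2 change -1.902 ± 0.062), and SLC16A3, a lactate exporter, 5.74, 2.99 and 4.14 CPM in ectoderm and 32.5, 26.8 and 32.7 CPM in primed cells. DDIT4, an mTOR inhibitor induced by several stresses, rose to 80.8, 54.8 and 68.1 CPM in ectoderm, against 7.48, 9.94 and 8.92 CPM in primed cells. All 13 mitochondrially encoded genes were lower, with a median log2 change of -1.52. MT-ND1, a subunit of complex I, had 555, 539 and 470.2 CPM in ectoderm and 2124, 2051 and 2151 CPM in primed cells, and MT-CO3 averaged 3006 ± 162 CPM in ectoderm and 7698 ± 114 CPM in primed cells (SD, n = 3 each). Nuclear copies of mitochondrial DNA can share these reads.

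Sterol synthesis genes were called higher for 0 and lower for 17 of 21, with a median log2 change of -0.59. HMGCS1, an early enzyme of the pathway, had 229, 232 and 251 CPM in ectoderm, against 593, 597 and 585 CPM in primed cells (log2 change -1.31 ± 0.053). Fatty acid synthesis genes were called higher for 2 and lower for 9 of 11. FASN, fatty acid synthase, had a log2 change of -1.27, and -0.38 with GC and length trends removed. Serine synthesis and amino acid stress genes were split 4 higher and 11 lower of 20. The higher count was 1 without primed replicate 1 or 2, and 2 without ectoderm replicate 3. SLC7A5, the large neutral amino acid transporter, had 84.3, 74.3 and 72.4 CPM in ectoderm and 380.5, 376 and 346 CPM in primed cells, and its partner SLC3A2 a log2 change of -1.06. Endoplasmic reticulum chaperone genes were even at 6 higher and 6 lower of 16, led by DNAJB9 (log2 change 1.41) and CRELD2 (-1.61).

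More cell cycle genes were called higher than lower. Mitosis genes were called higher for 13 and lower for 3 of 20, the lower count being 1 without primed replicate 3 or without ectoderm replicate 3. BUB1, a spindle checkpoint kinase, had 761, 734 and 683 CPM in ectoderm, against 206, 208 and 211 CPM in primed cells (log2 change 1.799 ± 0.054), and TOP2A, the topoisomerase of dividing cells, averaged 1302 ± 20.7 CPM in ectoderm and 717 ± 13.3 CPM in primed cells (SD, n = 3 each). S phase genes were called higher for 11 and lower for 5 of 21, among them TYMS, thymidylate synthase (log2 change 1.15), and CDC6, which loads the replicative helicase (0.77). Targets of p53 were split 7 higher and 4 lower of 21, and 10 and 3 with GC and length trends removed. Without primed replicate 1 or ectoderm replicate 2 the lower count was 2. Heat shock genes were called higher for 2 and lower for 4 of 10, and 4 and 4 with GC and length trends removed. HSP90AA1, the inducible HSP90, averaged 3836 ± 319 CPM in ectoderm and 2224 ± 39.5 CPM in primed cells (SD, n = 3 each).

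Genes of DNA methylation, imprinting and antigen display were mixed or mostly lower. Of 10 DNA methylation genes, 2 were higher and 4 lower. TET2, which oxidises methylcytosine, had 19.9, 15.8 and 10.5 CPM in ectoderm, against 2.06, 1.36 and 1.75 CPM in primed cells (log2 change 3.08 ± 0.26), while DNMT3B, the main de novo methyltransferase of primed cells, had 1452, 1588 and 1593 CPM in ectoderm and 2289, 2231 and 2202 CPM in primed cells. Imprinted genes were split 6 higher and 6 lower of 14, with NNAT, a neuronal proteolipid, at 362, 359 and 322 CPM in ectoderm and 85.4, 77.2 and 97.2 CPM in primed cells. Interferon and MHC class I genes were called higher for 1 and lower for 11 of 17. IFITM3, an antiviral membrane protein, had 112, 111 and 96.9 CPM in ectoderm and 275, 266 and 273 CPM in primed cells, and BST2, tetherin, was the exception at 54.6, 57.9 and 67.98 CPM in ectoderm and 13.6, 13.3 and 11.5 CPM in primed cells.

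The knockdown pair gave a day 2 against primed contrast in 6 libraries that the control pair did not use. A different gene was knocked down on each side, so state and knockdown cannot be told apart there. ZIC2 had 270.3, 268 and 277 CPM in ZIC2 knockdown ectoderm, against 631, 559 and 504 CPM in control ectoderm. CARHSP1 had 21.2, 18.5 and 18.8 CPM in CARHSP1 knockdown primed cells, against 156, 152 and 151 CPM in control primed cells. For both targets, every library labelled as the knockdown lay below every control library, with TMM factors computed within each pair. Of 15527 genes tested in this pair, 3913 (25.2%) were called higher and 3819 (24.6%) lower.

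Over the 15073 genes tested in both pairs, 2763 were called higher in both, which is 72.0% of the 3840 higher in the knockdown pair and 59.2% of the 4670 higher in the control pair. Called lower in both were 2802, 74.8% of the 3747 in the knockdown pair and 57.5% of the 4876 in the control pair. Log2 changes of the 2 pairs had a Pearson correlation across genes of 0.79 (n = 15073, with library preparation and base composition shared within each library). The neural plate factors were higher for 24 and lower for 1 of 29 in the knockdown pair, and Nodal and activin targets higher for 1 and lower for 10. SIX3 there had 173, 178 and 211 CPM in ectoderm, against 0, 0.0912 and 0.75 CPM in primed cells, and NANOG 6.07, 10.6 and 7.74 CPM in ectoderm and 133, 147 and 138 CPM in primed cells. Single genes were less alike: TDGF1 had 178, 212 and 199.9 CPM in ZIC2 knockdown ectoderm, against 1015, 1066 and 1115 CPM in CARHSP1 knockdown primed cells, a log2 change of -2.44 (adjusted p = 1.19e-21). Its difference from the control pair, tested as an interaction over the 12 libraries, was 4.68 on the log2 scale (adjusted p = 1.77e-27).

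Counts of list members in the 2 pairs are set side by side, with no test of the difference between pairs. Sterol synthesis genes were higher for 6 and lower for 7 of 21 in the knockdown pair, and higher for 0 and lower for 17 of 21 in the control pair. Serine and amino acid stress genes were higher for 15 and lower for 0 of 20 in the knockdown pair, and higher for 4 and lower for 11 of 20 in the control pair. Targets of p53 were higher for 17 and lower for 0 of 21 in the knockdown pair, and higher for 7 and lower for 4 of 21 in the control pair. Mitochondrially encoded genes were lower for 13 of 13 in both pairs, and their share of counts was 1.68%, 1.91% and 2.12% in ZIC2 knockdown ectoderm, against 5.74%, 6.21% and 6.45% in CARHSP1 knockdown primed cells. ERK feedback and target genes were higher for 4 and lower for 13 of 20 in the knockdown pair. Among them ETV5 had a log2 change of -1.38 in the knockdown pair, beside -4.04 in the control pair, with an interaction of 2.66 (adjusted p = 2.65e-15).

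**Figure D4:**
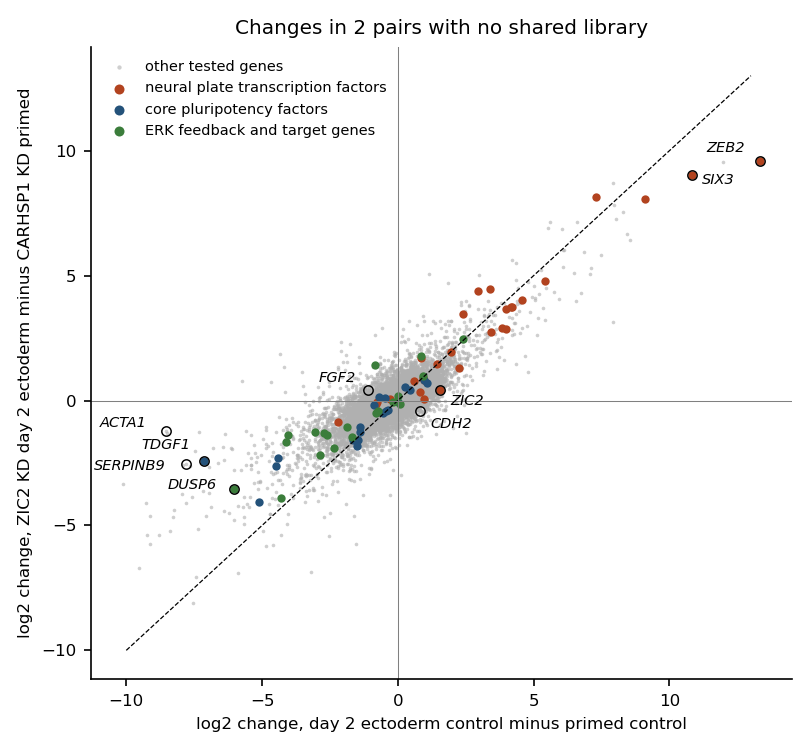
Log2 change in the knockdown pair (ZIC2 knockdown ectoderm minus CARHSP1 knockdown primed, vertical axis) against that in the control pair (horizontal axis) for 15073 genes tested in both. Most genes far from 0 lie at the upper right and lower left, and TDGF1 lies at -2.44 in the knockdown pair and -7.13 in the control pair.

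Change in the control pair moved with base composition, and the values of the knockdown pair are set beside it without a test of the difference. In the 10% of genes lowest in GC, with a median of 37.0% GC, the median log2 change was 0.29, and in the 10% highest in GC, with 63.6%, it was -0.78. In the knockdown pair, binned the same way over its own tested genes, the medians were 0.10 and -0.12. Its Spearman correlation across genes was -0.07. Genes at least 2-fold higher had a median GC content of 46.2%, those at least 2-fold lower 54.9%, and all tested genes 48.0%. With GC and length trends removed from each library, 98.3% of the genes at least 2-fold higher and 91.1% of those at least 2-fold lower held the same call. Of the called genes under 2-fold, 78.6% of the higher and 62.2% of the lower held it.

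**Figure D5:**
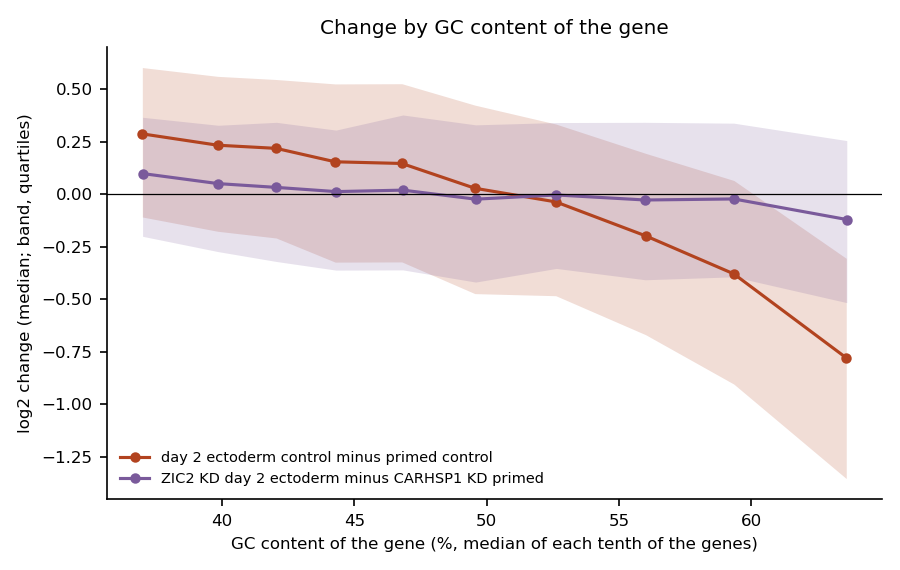
Median log2 change, day 2 ectoderm minus primed, in bins of 10% of the genes ordered by GC content (percent), for the control pair and the knockdown pair. The control pair falls to -0.78 in the bin highest in GC, where the knockdown pair stands at -0.12.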

How the data were processed

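RNA-seq libraries of H1 cells were made from 1 ug of total RNA with the TruSeq Stranded mRNA kit, per the labels' protocols. GRCh38 and HISAT2 are named in the submitters' processing notes. Counting tool, strand setting and annotation release: not given in the sources used here. Raw counts per gene were deposited by the authors with a gene length. That length was used in the fits with GC and length trends removed, and no level per kilobase is given in the text. The 27 columns of the table that match no sample here were not used, and the H9 libraries were not analysed here. Of 60671 gene IDs, 60401 have a symbol in the gene name table and 58453 are in GENCODE 29, whose coordinates are on GRCh38.

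The 3 day 2 ectoderm and 3 primed control libraries were fitted alone with edgeR 4.0.16 (TMM, filterByExpr, glmQLFit with robust set, glmQLFTest, 2-sided), with no covariate, and calls were made at an adjusted p under 0.05. The standard error is the log2 change divided by the square root of F. ZIC2 knockdown ectoderm and CARHSP1 knockdown primed libraries were fitted the same way, and an interaction over the 12 libraries, added after the data were seen, tested the difference between the pairs. Alternatives were DESeq2 1.42.0, RLE size factors, no filter, a filter of 1 CPM in 3 libraries, all 18 H1 libraries in 1 fit, a replicate block, GC and length trends removed by offsets, and leaving out each library. A fold against a group at 0 uses a floor of 3 counts over the group (0.105 CPM in ectoderm, 0.0958 CPM in primed cells), and intervals at 1 to 3 counts are exact at 95% and, like the floor, cover counting error only. Replicate libraries differed by more than sampling noise, with a chi-square per degree of freedom of 2.44 to 6.10, so none was counted as a copy.

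The members and the 47 gene lists were chosen with earlier results of these data known. The text names the 15 largest increases and decreases with at least 5 CPM in the higher group and no overlap, the 5 smallest p-values each way, up to 6 called members of each list in each direction, defining markers, and the knockdown targets. Some genes that this rule names are not reported here. Lists carry no test of their own. Some genes sit on more than 1 list, so the counts of such lists are not independent. Examples are SMAD7 (Nodal and activin targets, BMP targets), MYC (WNT targets, immediate early genes) and EGR1 (ERK targets, immediate early genes). With members at 0 placed at their floor bound, no list median moved.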

Additional observations from a re-analysis of the deposited data

Results flagged for a closer look

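The change between states differed between the control pair and the knockdown pair for 4583 of 16319 genes tested (28.1%), by edgeR's interaction term over 12 libraries at an adjusted p under 0.05. Of the 201 named genes that were followed, 120 were among them. The named genes below were called in opposite directions in the 2 pairs, and the 2 knockdowns cannot be told apart from the pair itself. The interaction was fitted without removal of GC and length trends. Change had a Spearman correlation with GC content of -0.35 in the control pair and -0.07 in the knockdown pair. The part of base composition in these differences was not tested.

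CDH2, N-cadherin, had a log2 change of -0.42 in the knockdown pair and 0.81 in the control pair, a difference of -1.24 (adjusted p = 1.59e-13). Its levels were 86.99, 101 and 90.2 CPM in ZIC2 knockdown ectoderm and 119.7, 125 and 127 CPM in CARHSP1 knockdown primed cells. FGF2 had 156, 179 and 151 CPM in ZIC2 knockdown ectoderm, against 115, 126 and 127 CPM in CARHSP1 knockdown primed cells. Its log2 change of 0.402 differed from the -1.09 of the control pair by 1.48 (adjusted p = 1.06e-14). The tight junction gene CLDN4 changed by 0.56 in the knockdown pair and -1.298 in the control pair, a difference of 1.85 (adjusted p = 3.24e-11). GLI1, the Hedgehog target, changed by 0.297 in the knockdown pair and -0.65 in the control pair, a difference of 0.94 (adjusted p = 0.00011). FOXH1, the SMAD partner, changed by 0.301 in the knockdown pair and -0.74 in the control pair, a difference of 1.03 (adjusted p = 1.69e-06), and its control-pair change was 0.002 with GC and length trends removed.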

How the results depend on the processing

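Over all alternatives, including each library left out, the count of genes called higher in the control pair ranged from 4282 to 4934 and of those called lower from 4052 to 5254. At 2-fold it was 1024 to 1197 higher and 1682 to 2651 lower, the lowest lower counts (1692, and 1682 with the replicate block) with GC and length trends removed. The knockdown pair ranged from 3476 to 4226 higher and 3380 to 4163 lower. All of these stayed within 1.5 times the reported counts. Of 94 counts of list members, 75 stayed so under every alternative.

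The numbers shared by the groups did not pair the control libraries, whose same-numbered deviations correlated at 0.011, 0.005 and -0.062, and the knockdown pair's at 0.33, 0.128 and 0.079. With the replicate block, 4617 genes were higher and 4868 lower in the control pair, 1024 and 2204 past 2-fold, and in the knockdown pair 4226 higher and 4156 lower. Of the named genes that were followed, the block ended the call of CDH1 (adjusted p = 0.0519).

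Of 201 named genes that were followed, 196 held their direction and side of the threshold under every alternative run. The exceptions among the 201 were CDH1, FOXH1, NES, SOX3 and TCF7L1. Not every gene named in the text was followed. Of those left out, KRT19 was not called with GC and length trends removed (log2 change 0.091, adjusted p = 0.349). TFAP2C was not called higher without primed replicate 1 or without ectoderm replicate 1. With GC and length trends removed, TCF7L1 was called in the opposite direction, at a log2 change of 0.191 (adjusted p = 0.00359), and at 0.192 with the replicate block as well (0.00498). FOXH1 lost its call there, at 0.002 (adjusted p = 0.986), and at 0.005 with the block (0.966). SOX3 was no longer called there (adjusted p = 0.900), and NES was called higher. The cause was not tested. GC removal also moved the split of higher against lower calls by over 10 percentage points in 7 lists, given beside each in the text. NES was also called with RLE size factors (adjusted p = 0.0452), with no low-count filter (0.0498), with all 18 H1 libraries in 1 fit (0.0407) and without ectoderm replicate 1 (9.6e-05), and CDH1 lost its call with no low-count filter (0.101). Values of PAX6, NODAL and LEFTY2 rest on few counts in their lower group.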

Other observations

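Several of the largest changes lay side by side on the genome. Pairs of neighbouring tested genes were listed where both changed by at least 3 on the log2 scale, and the loci named here were chosen after their values were seen, with coordinates from GENCODE 29 on GRCh38. Metallothionein genes, which bind zinc and copper, fell together on chromosome 16. MT2A had 1.77, 1.096 and 1.098 CPM in day 2 ectoderm, against 14.7, 10.5 and 13.3 CPM in primed cells (log2 change -3.34 ± 0.27), MT1X 4.27, 5.98 and 4.98 CPM in ectoderm and 54.8, 48.9 and 62.5 CPM in primed cells, and MT1G 1.18, 1.296 and 0.929 CPM in ectoderm and 19.2, 20.01 and 18.9 CPM in primed cells. These genes are close paralogs, so reads may be shared among them. The chemokine gene CXCL5 on chromosome 4, between PF4 and CXCL3, had 0.589, 0.399 and 0.422 CPM in ectoderm and 23.4, 27.9 and 25.2 CPM in primed cells, and PF4 was at 0 in all 3 ectoderm libraries. Caveolins form the coat of surface pits: CAV1 had 3.53, 1.395 and 2.87 CPM in ectoderm, against 57.9, 64.9 and 59.7 CPM in primed cells (log2 change -4.58 ± 0.17), and CAV2, 16244 bases away on chromosome 7, 0.736, 1.196 and 0.675 CPM in ectoderm and 9.39, 9.66 and 12.97 CPM in primed cells.

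GDF3, DPPA3 and NANOG follow each other on chromosome 12, and their log2 changes were -5.08, -3.06 and -5.098. Noncoding neighbours of neural plate genes rose as well. SIX3-AS1, whose start lies 25 bases from that of SIX3 on the other strand, had 2.21, 1.59 and 1.44 CPM in ectoderm and 0, 0 and 0 CPM in primed cells. SOX1-OT, 36631 bases from SOX1, had 1.47, 2.19 and 3.63 CPM in ectoderm and 0.153, 0 and 0 CPM in primed cells. LMX1A, a LIM homeobox factor of the roof plate and midbrain, lies beside RXRG on chromosome 1, and had 3.53, 2.39 and 2.702 CPM in ectoderm and 0, 0 and 0 CPM in primed cells. Without a stated strand setting, reads of overlapping antisense partners such as LHX5 and LHX5-AS1 cannot be told apart. By type, 70 of 464 tested lincRNA genes were at least 2-fold higher and 106 at least 2-fold lower.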
